A study of Mus musculus with 225 samples.

Results

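The interstitial collagens and associated matrix genes of the limb bud connective tissue were followed as 10 named genes, namely *Col1a1*, *Col1a2*, *Col3a1*, *Col5a1*, *Col5a2*, *Col6a1*, *Postn*, *Dcn*, *Lum* and *Sparc*. The rule names the genes by symbol and uses no measured value, but the list was drawn up with earlier results of these data known. All 10 were found in the raw count table, which names 23140 genes, and among the 10948 genes of the normalized table. Single-cell RNA-seq had been carried out on forelimbs of embryonic day 12.5 mouse embryos, separated into autopod, the prospective hand, and zeugopod, the prospective forearm. The normalized table retained 76 of the 96 autopod cells sequenced, from run NXT0072 (59 of 69) and run NXT0143 (17 of 27). Zeugopod cells were retained from NXT0142 (58 of 60) and NXT0143 (65 of 69), so that both tissues were sequenced together in NXT0143 only. Every embryo was *Hoxd11::GFP* heterozygous on a mixed C57Bl6CBAF1 background. A tau-GFP sequence inserted in the *Hoxd11* coding sequence inactivates that copy, hence neither tissue is wild type for *Hoxd11*. Cells were sorted for the highest 20% of GFP fluorescence, which reflects the GFP protein, so that cells with less of it were not sampled.

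Cells of each tissue came from pooled embryos, and the labels assign no cell to an embryo. Each tissue is thus 1 pooled sample. Differences between tissues are given as values without a test, and binomial and Poisson intervals cover counting error only.

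Collagens I, III and V assemble into the fibrils that fill the interstitium of loose connective tissue, tendon and dermis. Each molecule is a triple helix, and the chains of collagen I are encoded by *Col1a1* and *Col1a2*, those of collagen V by *Col5a1* and *Col5a2*, whereas collagen III is a homotrimer of the *Col3a1* product. Collagen VI, of which *Col6a1* encodes a chain, forms beaded microfibrils beside the fibrils. Decorin (*Dcn*) and lumican (*Lum*) are small leucine-rich proteoglycans that bind fibrils and control their thickness, while periostin (*Postn*) and SPARC are matricellular proteins that bind collagen. When limb mesenchyme condenses into cartilage under the control of *Sox9*, cells replace collagen I by the cartilage collagens II, IX and XI.

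According to the GENCODE annotation of GRCm38, *Col1a1* (ENSMUSG00000001506) lies on chromosome 11 from 94936224 to 94953042 on the plus strand, and *Sparc* (ENSMUSG00000018593) on the same chromosome from 55394500 to 55423183 on the minus strand. *Col1a2* (ENSMUSG00000029661) is found on chromosome 6 from 4504814 to 4541544. *Col3a1* (ENSMUSG00000026043) on chromosome 1, from 45311538 to 45349706 on the plus strand, is separated by 24.6 kb from *Col5a2* (ENSMUSG00000026042, 45374321 to 45503282, minus strand). *Col5a1* (ENSMUSG00000026837) occupies 27886425 to 28039514 of chromosome 2 and *Postn* (ENSMUSG00000027750) 54361109 to 54391037 of chromosome 3. *Col6a1* (ENSMUSG00000001119), *Dcn* (ENSMUSG00000019929) and *Lum* (ENSMUSG00000036446) are all on chromosome 10, the first from 76708792 to 76726168. *Dcn* (97479609 to 97518143) and *Lum* (97565128 to 97572703) are neighbours on the plus strand, 46.99 kb apart. Exons of *Col5a1* overlap the antisense transcript *2810430I11Rik*, which held 181 reads over all retained cells. Strand-specific counting is not stated, and *Col5a1* reads cannot be told apart from such antisense reads.

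RefSeq promoter sequences of GRCm38.p6 were matched to 6 of the 10 genes (*Col3a1*, *Col5a1*, *Postn*, *Col1a2*, *Col6a1* and *Sparc*). The 150 bases before the start site are shown for 3 of them that have no annotated GENCODE exon in this window and that were detected in many (*Col3a1*), an intermediate number (*Col5a1*) or few (*Postn*) zeugopod cells. The start of *Postn* nearest to its GENCODE start was taken. Capitals mark the TATA sequence TATAAA or the GC box GGGCGG on either strand.
Col3a1, chr1:45311388-45311537, plus strand: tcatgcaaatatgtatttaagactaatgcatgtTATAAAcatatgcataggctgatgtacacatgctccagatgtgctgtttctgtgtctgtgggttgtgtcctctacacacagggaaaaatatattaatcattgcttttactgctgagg
Col5a1, chr2:27886275-27886424, plus strand: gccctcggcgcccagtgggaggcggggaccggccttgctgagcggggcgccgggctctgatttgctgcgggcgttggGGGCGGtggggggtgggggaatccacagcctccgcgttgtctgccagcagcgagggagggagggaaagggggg
Postn, chr3:54360957-54361106, plus strand: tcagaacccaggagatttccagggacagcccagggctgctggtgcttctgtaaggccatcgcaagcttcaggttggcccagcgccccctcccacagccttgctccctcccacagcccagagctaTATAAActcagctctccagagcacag

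TATAAA occurred in the windows of *Col3a1* and *Postn* and, as a background, in 7.57% of all 32851 promoter windows of this length. GGGCGG occurred in the window of *Col5a1* and in 28.6% of all windows. The CCAAT box, searched as CCAAT on both strands, was found in none of the 3 windows and in 24.5% of all windows. These matches describe letters only, and binding was not measured.

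The retained cells held between 186271 and 9437447 reads on genes, and 1801 to 6162 genes with a read. The tissue labels were compared with *Hoxd13*, which encodes a HOX protein of the autopod, and *Shox2*, a homeobox gene of the proximal limb. At least 5 *Hoxd13* reads were present in 65 of 76 autopod cells and in 1 zeugopod cell. *Shox2* was detected in 73 zeugopod cells (59.3%) and in 0 of 76 autopod cells, for which 3 cells would make 3.95%. The 11 autopod cells below 5 *Hoxd13* reads were 5 of 59 cells in NXT0072 and 6 of 17 cells in NXT0143, and results that change without them are given with both values. No 2 cells had identical counts.

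The collagen genes of collagens I and III were detected in most zeugopod cells and in fewer autopod cells. *Col1a1* reached at least 5 reads in 120 zeugopod cells (97.6%, Clopper-Pearson 95% interval 93.04 to 99.5%), all but 3, against 49 of 76 autopod cells (64.5%, 52.7 to 75.1%). *Col1a2* was detected in 95.1% of zeugopod cells (89.7 to 98.2%) and 67.1% of autopod cells (55.4 to 77.5%). *Col3a1* was seen in 82.9% (75.1 to 89.1%) and 34.2% (23.7 to 45.99%), respectively. For each of these genes both zeugopod runs had higher shares than both autopod runs. How many of all genes have such shares was not counted. For collagen V, *Col5a1* was detected in 53.7% of zeugopod (44.4 to 62.7%) and 19 of 76 autopod cells (15.8 to 36.3%), whereas *Col5a2* was detected in 69.1% (60.1 to 77.1%) and 55.3% (43.4 to 66.7%), intervals that overlap.

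The proteoglycan genes, *Postn* and *Col6a1* were rare in autopod cells. *Lum* reached 5 reads in 44 zeugopod cells (35.8%, 27.3 to 44.9%) and in 1 autopod cell (1.32%, 0.0333 to 7.11%). *Dcn* did so in 36 zeugopod cells (29.3%, 21.4 to 38.1%), also in 1 autopod cell. *Postn* was found in 24 zeugopod cells (19.5%, 12.9 to 27.6%) and again 1 autopod cell, and *Col6a1* in 35 zeugopod cells (28.5%, 20.7 to 37.3%) and 4 autopod cells (5.26%, 1.45 to 12.9%). In NXT0143 alone no autopod cell reached 5 reads of *Lum* or *Postn*, where 3 of 17 cells would make 17.6%. *Sparc* was detected in 68.3% of zeugopod cells (59.3 to 76.4%) and 40.8% of autopod cells (29.6 to 52.7%), but here the runs diverged. Autopod cells of NXT0072 contained *Sparc* in 32.2% of cases (20.6 to 45.6%) and those of NXT0143 in 70.6% (44.04 to 89.7%), while the zeugopod shares were 67.2% in NXT0142 and 69.2% in NXT0143.

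To compare shares at equal depth, cells were thinned to 500000 reads, which left out 4 cells of each tissue. The share of cells with 5 *Col1a1* reads was then 44.4% in the autopod and 96.6% in the zeugopod. *Col3a1* was at 23.6% and 72.3%. *Lum* was in 0 of the 72 thinned autopod cells, for which 3 cells would make 4.17%, and in 35.3% of zeugopod cells, and *Dcn* in 1.39% and 30.3%. For each of these genes the zeugopod share was the higher one at matched depth. The collagen V genes came closer together than without thinning, with *Col5a1* at 20.8% in the autopod and 35.3% in the zeugopod, and *Col5a2* at 48.6% and 52.1%.

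Levels were compared as normalized values, reads divided by the spike-in size factor of the cell and by gene length in kb, which allows genes to be set side by side. A gene with 0 reads does not take the value 0 in this table but 1 read divided by its length, for example 0.151 for *Col1a1* and 0.481 for *Lum*. *Col1a1* ranged in autopod cells from 0.151 to 259 with a median of 2.57, and in zeugopod cells from 0.151 to 2598 with a median of 196.6. *Col1a2* ranged from 0.0821 to 1620.3 (median 7.71) in the autopod and to 1781 (median 127.9) in the zeugopod. *Col3a1* had a median of 0.103, the value at 0 reads, and a maximum of 1700.3 in the autopod, and a median of 101.8 and a maximum of 2877 in the zeugopod. The highest cells of *Col1a2* and *Col3a1* thus had values of the same order in both tissues, and the tissues overlapped in every gene.

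*Dcn* and *Lum* were high in a minority of zeugopod cells. Among the 36 zeugopod cells with *Dcn* the median normalized value was 1276.5 and the highest 8828, although the median over all zeugopod cells was the value at 0 reads, 0.478. A read of *Dcn* was present in 48 zeugopod cells, and the 36 with at least 5 reads all had at least 20. The 44 zeugopod cells with *Lum* had a median of 1413 and a maximum of 17089.5, the highest value of any of the 10 genes in any cell. The single autopod cell with *Lum* had a normalized value of 30.8 from 29 reads, and the single autopod cell with *Dcn* 63.04 from 84 reads. Over the whole tissue, 237267 *Lum* reads were counted in zeugopod cells and 29 in autopod cells (exact Poisson interval 19.4 to 41.6).

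*Postn*, *Col6a1* and *Col5a1* were low in most cells. The 5 highest zeugopod cells contained 82.6% of all zeugopod *Postn* reads and 62.8% of *Col6a1* reads, but 20.1% of *Col1a1* reads. In the 24 zeugopod cells with *Postn* its median normalized value was 21.7 and in the highest 2098. *Col6a1* had a median of 93.5 in its 35 zeugopod cells and *Col5a1* of 8.81 in 66 cells. *Sparc* had medians of 0.296, the value at 0 reads, in the autopod and 124.9 in the zeugopod, with maxima of 6736 and 3897.

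**Figure D1:**
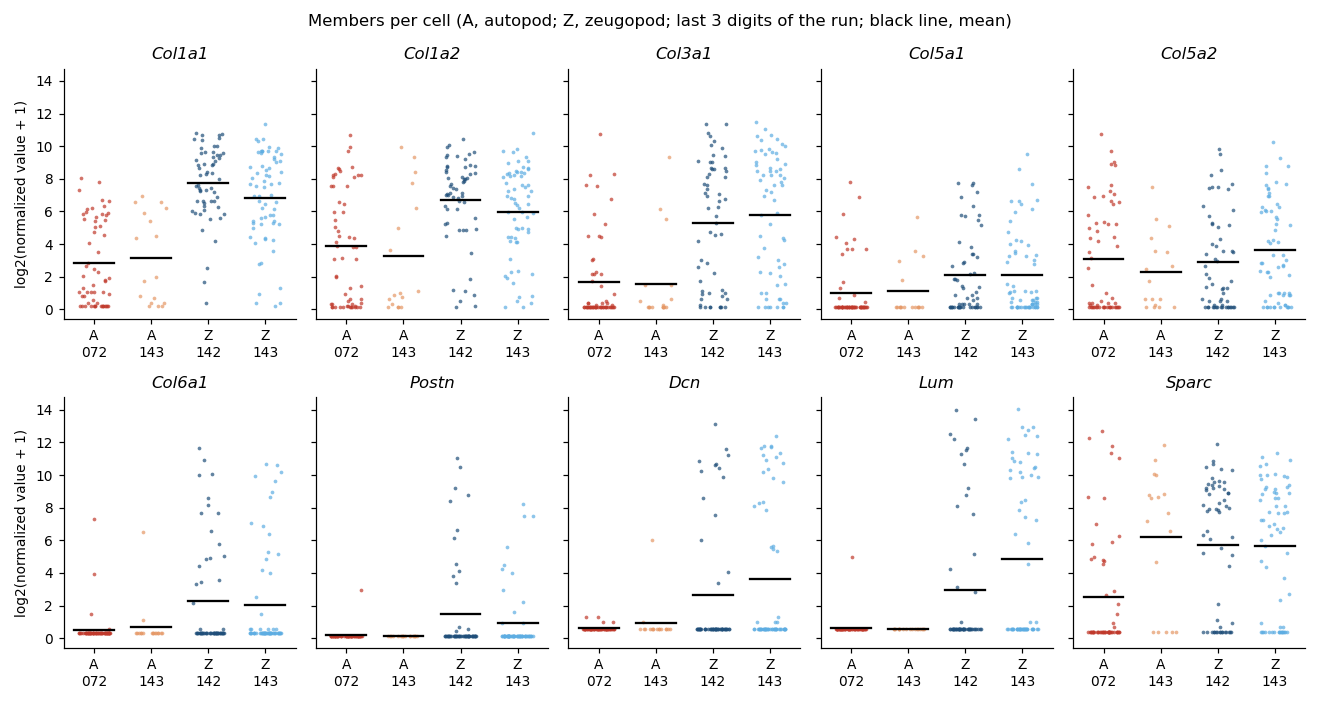
Each point is a cell and each panel a gene, with log2(normalized value + 1) on the vertical axis and tissue and run on the horizontal axis; black lines are means. *Col1a1* means are 2.82 and 3.12 in the autopod runs and 7.76 and 6.84 in the zeugopod runs, *Dcn* and *Lum* points split into a floor and a high group in the zeugopod, and *Sparc* is higher in autopod cells of NXT0143 (6.21) than of NXT0072 (2.54).

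On the scale of mean log2(normalized value + 1), the order of the genes in the zeugopod was *Col1a1* (7.27), *Col1a2* (6.31), *Sparc* (5.67), *Col3a1* (5.54), *Lum* (3.95), *Col5a2* (3.27), *Dcn* (3.16), *Col6a1* (2.14), *Col5a1* (2.09) and *Postn* (1.17). The standard deviation across cells was between 2.44 and 4.77, and each neighbouring pair in this order differed by less than that. In the autopod *Col1a2* (3.73) came first, followed by *Sparc* (3.36), *Col5a2* (2.90), *Col1a1* (2.88), *Col3a1* (1.66) and *Col5a1* (1.04), while *Dcn* (0.67), *Lum* (0.62), *Col6a1* (0.55) and *Postn* (0.19) were close to their values at 0 reads. Here too neighbours differed by less than the standard deviation across cells, except *Col6a1* and *Postn*.

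The autopod against zeugopod contrast was computed as the difference of these means. All 10 genes had lower means in the autopod, as had 56.5% of 4898 genes across the table, namely those that reached 5 reads in 25% or more of autopod or of zeugopod cells (the genes tested). The median difference of the 10 genes was −2.40 on the log2 scale and that of the genes tested −0.12. The difference was −4.39 for *Col1a1* (autopod 2.88, zeugopod 7.27), −3.88 for *Col3a1*, −3.32 for *Lum*, −2.58 for *Col1a2*, −2.49 for *Dcn* and −2.31 for *Sparc*. These 6 of 10 genes were at or below −2. For comparison, 2.69% of the genes tested lay there. *Col6a1* gave −1.59, *Col5a1* −1.05, *Postn* −0.97 and *Col5a2* −0.37. *Postn* was below the 25% criterion in both tissues, and *Col6a1*, *Dcn* and *Lum* passed it through the zeugopod only. Among the genes tested, 2 had lower differences than *Col1a1* and 8 lower than *Col3a1*.

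Within NXT0143, where both tissues shared a run, 9 of the 10 genes were lower in the 17 autopod than in the 65 zeugopod cells, as were 41.1% of the genes tested, and the median difference was −2.02. Here 5 genes were at or below −2, against 1.04% of the genes tested, whose median was 0.18. *Lum* gave −4.28, *Col3a1* −4.19, *Col1a1* −3.72, *Dcn* −2.71 and *Col1a2* −2.71. Only 1 and 2 of the genes tested had lower differences than *Lum* and *Col3a1*. *Col5a2* (−1.33), *Col6a1* (−1.33), *Col5a1* (−0.96) and *Postn* (−0.74) were lower in the autopod by smaller amounts, and *Sparc* was higher by 0.57.

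Between NXT0072 autopod and NXT0142 zeugopod cells, which share no cells with the former comparison, the median difference was −2.17 and 6 genes were at or below −2. In that comparison 6.94% of the genes tested lay there, 65.6% were below 0 and their median was −0.34. Tissue and run cannot be told apart in it. *Col1a1* gave −4.94, *Col3a1* −3.62, *Sparc* −3.17, *Col1a2* −2.82, *Lum* −2.30 and *Dcn* −2.04. *Col5a2* was higher in the autopod by 0.21. Hence *Col1a1*, *Col1a2*, *Col3a1*, *Dcn* and *Lum* were at or below −2 in both comparisons, although *Dcn* was at −1.97 as CPM between NXT0072 and NXT0142, whereas *Sparc* and *Col5a2* each had opposite signs in them.

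The *Sparc* value within NXT0143 depended on the autopod cells without *Hoxd13*. Its mean was 9.29 in these 6 cells and 4.53 in the other 11, and with the 11 cells alone the difference to the zeugopod was −1.11 rather than 0.57. Over all runs it changed from −2.31 to −2.92 with the 65 *Hoxd13* cells alone. For the 10 genes the median within NXT0143 was −2.07 with those cells alone, and the same number of genes, 5, lay at or below −2. What the 6 cells are was not tested.

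**Figure D2:**
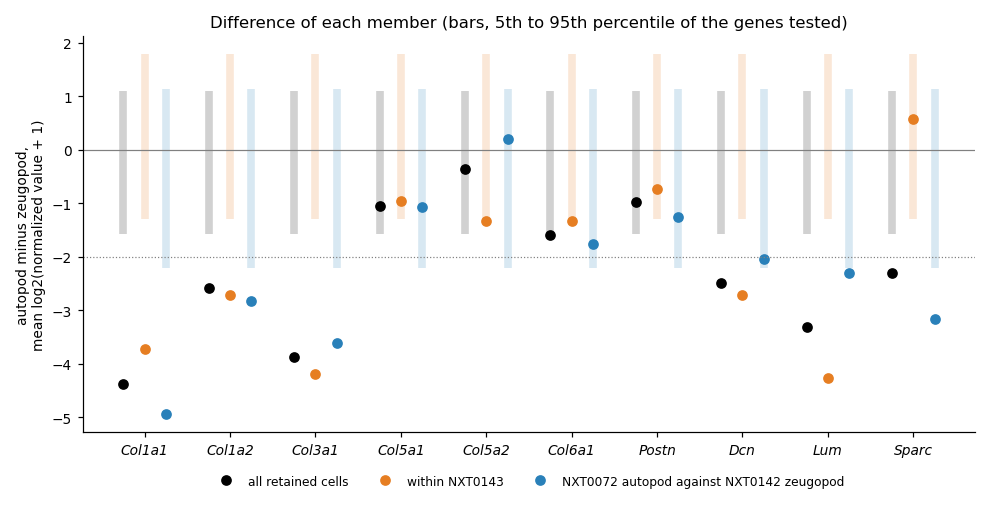
Difference of mean log2(normalized value + 1), autopod minus zeugopod, for each gene over all retained cells, within NXT0143 and between NXT0072 and NXT0142; pale bars span the 5th to 95th percentile of the 4898 genes tested and the dotted line marks −2. *Col1a1*, *Col1a2*, *Col3a1* and *Lum* lie below the bars in all 3 comparisons, *Dcn* and, narrowly, *Col6a1* in the first 2, and *Col5a2* narrowly within NXT0143 only. *Sparc* lies below them over all retained cells and between NXT0072 and NXT0142 (−3.17), but is at 0.57 within NXT0143.

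The contrast was also expressed as CPM, reads per 1000000 reads on genes, which does not use the spike-ins. On log2(CPM + 1) the median difference of the 10 genes was −2.59 over all cells and −2.36 within NXT0143, while that of the genes tested was −0.29 and −0.02. *Col1a1* gave −5.09 and −4.63 and *Col3a1* −4.72 and −5.50, respectively. *Sparc* within NXT0143 was 0.09.

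The balance between the chains of collagen I also differed between the tissues over all runs. Among cells with at least 20 reads of either gene, the per-length value of *Col1a1* exceeded that of *Col1a2* in 79 zeugopod cells (64.2%, 55.1 to 72.7%) but in 19 of 55 autopod cells (34.5%, 22.2 to 48.6%). The median log2 ratio of *Col1a1* to *Col1a2* within a cell was 0.83 in the zeugopod and −2.28 in the autopod. The zeugopod runs gave 0.94 and 0.78, and the autopod runs −2.48 (43 cells) and −1.67 (12 cells). Within NXT0143 *Col1a1* was the higher chain in 5 of 12 autopod cells (41.7%, 15.2 to 72.3%). In zeugopod cells of that run the share was 63.1% (50.2 to 74.7%), and the intervals overlap. The quartiles of the ratio in those 12 autopod cells were −3.97 and 6.58. For the collagen V chains the median log2 ratio of *Col5a1* to *Col5a2* was negative in both tissues, −2.40 in 87 zeugopod and −6.80 in 48 autopod cells, and *Col5a1* was the higher chain in 33.3% (23.6 to 44.3%) and 27.1% (15.3 to 41.8%). *Col5a1* had 0 reads in 15 of these zeugopod and 26 of these autopod cells, so that the autopod median is set by the fixed value given to 0 reads and is no measured ratio. *Col1a1* had 0 reads in 5 of the 55 autopod cells and *Col1a2* in 6. A ratio within a cell depends little on the size factor of that cell where both genes have many reads. The value given to 0 reads is the same in all cells, so that ratios with 0 or few reads shift with the size factor. The level of every ratio depends on the gene lengths used.

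The number of these genes in a single cell also differed between the tissues, which largely follows from the shares of single genes given above. The median number of all genes with a read was 3995 in zeugopod and 3684 in autopod cells. Counts for other sets of 10 genes were not computed. At least 6 of the 10 genes were detected in 67 zeugopod cells (54.5%, 45.2 to 63.5%) and in 1 of 76 autopod cells (1.32%, 0.0333 to 7.11%), and all 10 genes were present in 5 zeugopod cells. Together the 10 genes made up 0.306% of the reads on genes in the median zeugopod cell, at most 1.90%, and 0.0605% in the median autopod cell, at most 0.979%.

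**Figure D3:**
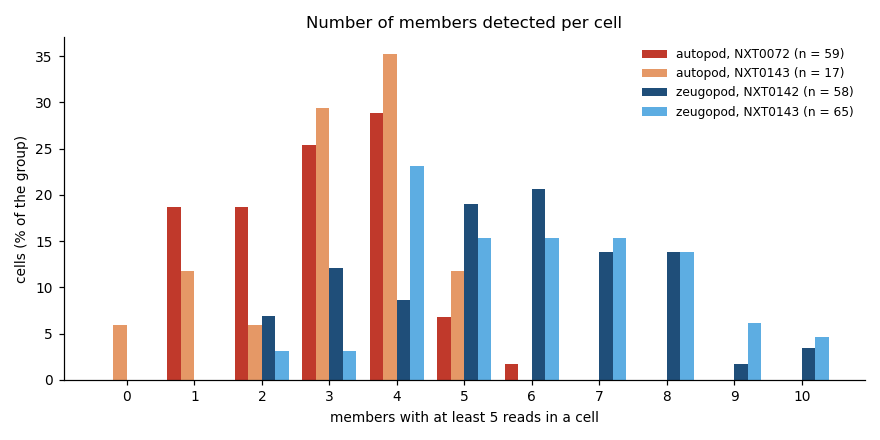
Bars give the percentage of cells of each tissue and run that had a given number of the 10 genes, from 0 to 10, at 5 or more reads. Autopod cells lie between 0 and 6 genes with a median of 3 and zeugopod cells between 2 and 10 with a median of 6.

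The 10 genes were positively correlated with each other in zeugopod cells. All 45 pairs had a positive Spearman correlation across cells, with a median rho of 0.29, a lowest value of 0.06 (*Col5a2* and *Postn*) and a highest of 0.63 (*Dcn* and *Lum*). The next were *Col1a1* and *Col1a2* (0.59), *Col3a1* and *Lum* (0.55), *Col1a1* and *Col3a1* (0.55) and *Col1a1* and *Lum* (0.53). The median was 0.26 in NXT0142 and 0.35 in NXT0143, 0.27 with CPM, and 0.24 when ranks were adjusted for the number of genes detected, with which the number of matrix genes in a zeugopod cell had a rho of 0.38. *Col1a1* (median rho 0.40 with the other genes) and *Col3a1* (0.39) were the most connected, and *Col6a1* (0.23) and *Col5a2* (0.25) the least. Pairs of other genes were not computed as a background. Over 4295 other genes, the median rho with the mean level of the 10 genes, averaged over the runs, was itself 0.14. That mean level had a rho of 0.45 with the number of genes detected. These are descriptions across cells of 1 pool, which share depth and run.

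In autopod cells the median rho was 0.05, with 25 of 45 pairs above 0. Only *Col1a1* and *Col1a2* (0.44) and *Col6a1* and *Postn* (0.42) exceeded 0.3, and the latter rests on the single cell with *Postn*. The median was −0.01 in NXT0072 and 0.17 over the 28 pairs that could be computed in the 17 cells of NXT0143. Few autopod cells had any *Dcn*, *Lum* or *Postn*, so that pairs with these genes hold little information.

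**Figure D4:**
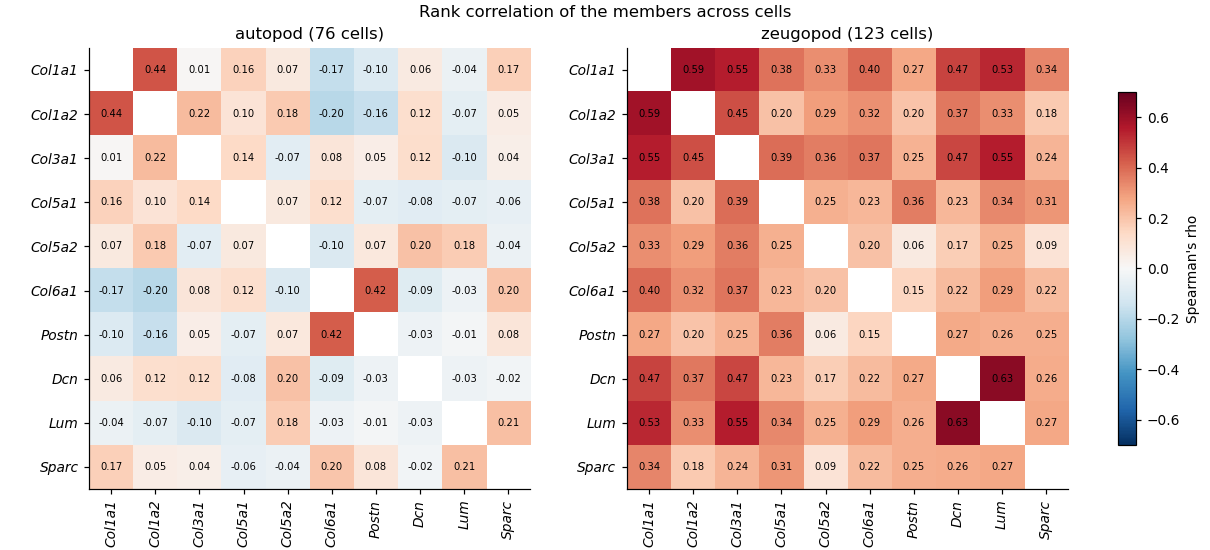
Spearman's rho between each pair of genes across the autopod (left) and zeugopod cells (right), with colour from −0.7 to 0.7 and the value printed in each square. The zeugopod matrix is positive throughout with a maximum of 0.63 for *Dcn* and *Lum*, and the autopod matrix has 2 values above 0.3.

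Joint detection shows the same pairs as numbers of cells. *Lum* was present in 28 of the 36 zeugopod cells with *Dcn* (77.8%) and in 16 of the 87 without (18.4%). This held in each run, with 57.1% against 15.9% in NXT0142 and 90.9% against 20.9% in NXT0143. *Postn* was found in 14 of the 36 *Dcn* cells (38.9%) and in 10 of the 87 others (11.5%), and *Col6a1* in 17 (47.2%) and 18 (20.7%). *Col3a1* was found in 35 of the 36 *Dcn* cells, against 67 of the other 87 (77.01%).

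The zeugopod holds cells on the way to cartilage, and the 10 genes were therefore compared between cells with chondrogenic markers and the rest. A cell was called chondrogenic when at least 3 of *Sox9*, *Col2a1*, *Acan*, *Col9a1* and *Matn1* had 5 reads, which applied to 38 zeugopod cells (30.9%) and 35 autopod cells (46.1%). In zeugopod cells 9 of the 10 genes had lower means in chondrogenic cells (65% of the genes tested had), with a median difference of −1.71 against −0.21 for the genes tested. *Col3a1* (−3.47), *Dcn* (−3.21), *Lum* (−2.46) and *Col1a2* (−2.45) were at or below −2, as were 1.27% of the genes tested. *Dcn* was detected in 2 of the 38 chondrogenic cells (5.26%) and in 34 of the 85 others. *Col3a1* was detected in similar shares, 78.9% and 84.7%, but its median normalized value was 2.72 in chondrogenic and 278 in other cells. *Col1a1* gave −1.31 with medians of 83.2 and 315, and *Sparc*, which cartilage also contains, gave 0.04. The median difference was −1.33 in NXT0142 and −2.16 in NXT0143.

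As a set, the 10 genes did not show this order in autopod cells, although *Col6a1*, *Postn*, *Dcn* and *Lum* were too low there to show it. *Col1a1* and *Col1a2* had lower means in chondrogenic cells of both tissues. The median difference between chondrogenic and other autopod cells was 0.11, against −0.55 for the genes tested, and the median number of genes with a read was 3390 and 3890 in these cells. At or below −2 were 0 of the 10 genes and 3.51% of the genes tested. Below 0 were 78.3% of the genes tested and 3 of the 10, *Col1a2* by −1.24, *Col1a1* by −0.87 and *Col5a1* by −0.65. In NXT0072 *Col1a2* gave −1.32 and *Col1a1* −0.28 (0.13 as CPM), with a median of −0.58 for the genes tested. In NXT0143, with 8 and 9 cells, they gave −0.95 and −2.93, with a median of −0.35 for the genes tested. *Sparc* was higher in chondrogenic autopod cells by 1.11. The 4 autopod cells with *Col6a1* and the single ones with *Postn*, *Dcn* and *Lum* were all called chondrogenic. In the other autopod cells the means of *Col6a1* (0.29), *Postn* (0.16), *Dcn* (0.63) and *Lum* (0.57) were at or near their values at 0 reads. These genes could therefore not reach −2, and the median of 0.11 lies between *Dcn* (0.091) and *Lum* (0.13). The difference between the tissues was not tested.

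Autopod and zeugopod cells were also compared within each of these classes. Among cells not called chondrogenic (41 and 85), *Col3a1* gave −5.05, *Col1a1* −4.39, *Lum* −4.14, *Dcn* −3.52 and *Col6a1* −2.43, with a median over the 10 genes of −2.79 and over the genes tested of 0.09. Among chondrogenic cells (35 and 38) the median was −1.17, and −0.28 over the genes tested. There *Col1a1* gave −3.95, *Sparc* −1.74, *Col1a2* −1.56, *Lum* −1.56 and *Col3a1* −1.37, whereas *Dcn* (−0.22) and *Col6a1* (0.01) were near 0 and *Col5a2* was higher in the autopod by 0.996. Within NXT0143, with 8 and 19 chondrogenic cells, *Sparc* (0.90) and *Col5a2* (−0.88) had the opposite signs, *Col6a1* gave 0.73, and *Col1a1* (−4.10), *Lum* (−2.27), *Col1a2* (−1.44) and *Col3a1* (−1.30) were again lower in the autopod. In the 9 and 46 other cells of that run *Col3a1* gave −5.93, *Lum* −5.11, *Dcn* −4.04 and *Col1a1* −2.83. The autopod differences of *Col3a1*, *Dcn* and *Lum* were thus larger in size in the cells without chondrogenic markers, over all runs and within NXT0143. Over all runs the autopod means of *Dcn* (0.72 in chondrogenic and 0.63 in other cells) and *Lum* (0.69 and 0.57) were near the values at 0 reads (0.56 and 0.57). For *Dcn* and *Lum* this order therefore restates the difference between zeugopod classes given above and is no separate result. The same holds for *Col3a1* over all runs, where its autopod means were 1.78 in chondrogenic and 1.57 in other cells. Within NXT0143 the autopod means of *Col3a1* were 2.73 in 8 chondrogenic and 0.53 in 9 other cells. There its order combines the class differences of both tissues and is no separate result either.

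**Figure D5:**
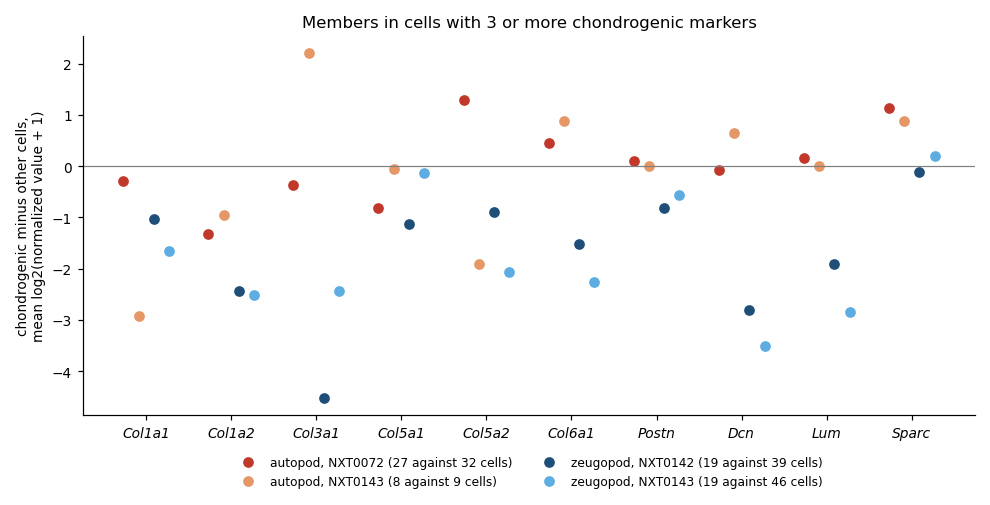
Difference of mean log2(normalized value + 1) between cells with 3 or more chondrogenic markers and the other cells of the same tissue and run; numbers of cells are in the key. Zeugopod values of *Col3a1* (−3.47 over both runs), *Dcn* (−3.21) and *Lum* (−2.46) lie well below 0 in both runs, and autopod values scatter on both sides of 0.

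Tendon markers, at least 2 of *Scx*, *Tnmd* and *Tnc*, were present in 17 zeugopod cells and in 0 autopod cells, for which 3 cells would make 3.95%. In these 17 cells, of which 3 were also chondrogenic, *Lum* was higher by 1.75, *Col1a2* by 1.59, *Dcn* by 1.18, *Col6a1* by 1.10 and *Col1a1* by 1.03 than in the other zeugopod cells, and *Sparc* was lower, at −1.31. None of the 10 genes was at or above 2, as were 1.47% of the genes tested. With 6 such cells in NXT0143, the *Dcn* and *Col6a1* differences were 3.82 and 2.76 in that run and −0.07 and 0.04 in NXT0142.

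Genes that follow or oppose the 10 genes were sought in the zeugopod. The level of the 10 genes in a cell was taken as their mean log2(normalized value + 1), and rank correlations with it were computed within each run over 4295 other genes and averaged. The median over these genes was 0.14. Among the highest were *Tpm1*, an actin-binding tropomyosin (0.64), *Osr1*, a transcription factor of limb connective tissue (0.64), *Marcks* (0.62) and the growth factor gene *Igf1* (0.62). Also among them were *March4* (0.57), *Tril* (0.57), *Adgrl2* (0.56), *Spats2l* (0.56) and *Dlk1* (0.56). The lowest were *Sox5* (−0.44), *Sox9* (−0.44) and *Sox6* (−0.42), the SOX factors of cartilage, with *Iqcf3* (−0.40) and *Mecom* (−0.40). In the 59 autopod cells of NXT0072, *Marcks* gave 0.43, *Tpm1* 0.26, *Osr1* 0.22 and *Igf1* 0.20, whereas *Sox9* gave −0.18, *Sox6* −0.10, *Iqcf3* −0.07 and *Sox5* −0.01. *Mecom* had the opposite sign there, with 0.37, and in the 17 autopod cells of NXT0143 *Mecom* (0.24), *Sox5* (0.24) and *Iqcf3* (0.15) were positive and *Tril* negative (−0.06).

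Other genes of the matrix were summarised by lists, whose median differences were smaller than that of the 10 genes. The normalized table holds 14 other collagen genes, 7 of them among the genes tested. Of the 14, 0 were at or below −2 or at or above 2 (0.796% of the genes tested were at or above 2) and the median difference was −0.09. Other connective tissue matrix genes numbered 27, with 19 among the genes tested, a median of −0.75 and 4 at or below −2. Of these, *Mfap2*, a microfibril protein, gave −2.39, *Ogn*, encoding the proteoglycan osteoglycin, −2.10 and *Smoc2*, a relative of SPARC, −2.10, each with the same sign in both comparisons of runs, while *Fstl1* (−2.18) gave 0.24 within NXT0143. *Ogn* was detected in 26.8% of zeugopod and 0 autopod cells (3 cells would make 3.95%).

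Among 25 genes for collagen processing and crosslinking, 11 of them among the genes tested, the median was −0.21. At or below −2 was 1 gene, *Ppib*, a prolyl isomerase of the endoplasmic reticulum (−2.09, and −0.58 within NXT0143). The 5 collagen receptor genes (3 among the genes tested) had a median of −0.02. The 9 genes of matrix turnover, all among the genes tested, had one of −0.26, with 0 genes beyond 2 in both lists. Of the 4 chondrogenic markers in the normalized table, *Sox9* was higher in the autopod by 3.14 and *Col9a1* by 2.29, while *Col2a1* (−1.54, but 0.80 within NXT0143) and *Acan* (−0.30) were lower. The 6 other cartilage matrix genes (3 among the genes tested) had a median of −0.53 with 0 beyond 2.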

How the data were processed

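Forelimb cells were captured on a Fluidigm C1 chip and libraries were made with the SMARTer and Nextera XT kits. The authors aligned 75-base reads uniquely to mm10 and the ERCC spike-ins with Bowtie2 in local mode and deposited raw counts of reads per Ensembl gene (GRCm38), without normalization, for 225 cells, 96 from the autopod and 129 from the zeugopod. For 199 of them (76 and 123) and 10948 genes the authors also deposited a normalized signal. It was computed with scran from spike-in size factors centred on their batch of origin, and divided by gene length. The paper does not state whether such a batch is a run. In the deposited signal table every gene takes a single value in all cells with 0 reads, and 100.0% of values were whole multiples of it within 1e-06. Reads were not remapped. Rows of 92 spike-ins were left out of all totals. The depth of a retained cell was between 186271 and 9437447 reads.

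From these tables, cells were grouped by the tissue and run in their labels. Differences are those of mean log2(normalized value + 1). CPM used all gene reads of a cell. A gene counted as detected at 5 reads, and as tested across the table with 5 reads in 25% of the cells of either tissue. Cells were thinned without replacement to 500000 reads (seed 42), which left 72 autopod and 119 zeugopod cells. Shares have Clopper-Pearson 95% intervals and read sums exact Poisson 95% intervals, both for counting error only. Beside a tissue with 0 cells stands its upper limit, taken as 3 cells. Correlations are Spearman's and carry no p-value, and no test was run, since each tissue is 1 pool. Calculations used Python 3.11 with numpy, pandas and scipy and were checked on simulated counts. Doublets were not called. No column belonged to other samples.

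The members, gene lists and marker lists were chosen with earlier results of these data known. Named genes were the 10 members, the genes of each list with a difference of at least 2 in size and the same sign in both comparisons of runs, and the 10 highest and 5 lowest rank correlations with the members in zeugopod cells among genes with 5 reads in 25% of them. *Fstl1* was named beside this rule. A gene that met the rule is not reported here. Values per cell with *Hoxd13* and CPM within runs were added after seeing the data, as were the chain ratios, joint detection and the order of the levels.

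Marker lists gave, beside the chondrogenic and tendon cells, 0 cells with muscle, epithelial, endothelial, macrophage, bone, smooth muscle and pericyte or glial markers in the required number (3, or 2 for macrophage and glia). Cell cycle markers were present in 18 autopod and 23 zeugopod cells. Of 4 blood genes 1 is in the count table, *Hba-x*, and reached 5 reads in 1 autopod cell. Alternatives were CPM, pseudocounts of 0.1 and 10, single runs, thinning, pooled CPM, cells without chondrogenic markers, other read and marker criteria and a difference of 1.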

Additional observations from a re-analysis of the deposited data

Results flagged for a closer look

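The sign of the tissue difference changed between the comparisons of runs for 2 genes. *Sparc* was higher in autopod than in zeugopod cells by 0.57 within NXT0143 and differed by −3.17 between NXT0072 autopod and NXT0142 zeugopod cells, and *Col5a2* gave −1.33 and 0.21 in the same order. *Col2a1*, *Fstl1* and *Ccdc80*, looked up after these values were seen, had the same signs as *Sparc*, with 0.80, 0.24 and 1.39 within NXT0143 and −2.27, −3.17 and −2.79 between the other runs. Whether these differences between runs exceed the variation between pools was not tested.

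The difference between chondrogenic and other cells had opposite signs in autopod and zeugopod for 6 genes, and the difference between the tissues was not tested. *Col3a1* gave 0.21 in the autopod and −3.47 in the zeugopod. *Col5a2* gave 0.57 and −1.53, *Col6a1* 0.55 and −1.89, *Postn* 0.080 and −0.66, *Dcn* 0.091 and −3.21, and *Lum* 0.13 and −2.46. The autopod values of *Postn*, *Dcn* and *Lum* rest on 1 cell each with 5 reads, and that of *Col6a1* on 4 cells. Those of *Col3a1* and *Col5a2* had opposite signs in the autopod runs (−0.36 and 2.20, 1.29 and −1.91).

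Of the 26 cells that the normalized table leaves out, 20 autopod and 6 zeugopod cells with a median of 25640 reads on genes, 1 cell, from the zeugopod, had at least 5 reads of *Col1a1*.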

How the results depend on the processing

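No paired analysis was possible because no result comes from a test and the numbers of cells only name them. Differences on the log2 scale were called moved when the fold change they stand for changed by more than a factor of 1.5. Counts were called moved when they themselves changed by more than that factor, and correlations when they changed by more than 0.1. With a pseudocount of 10 the median tissue difference was −1.52 and the number of genes at or below −2 was 3, by the construction of the scale, which compresses low values. From pooled CPM the median was −3.57. The median rank correlation in autopod cells was 0.17 in NXT0143 alone. *Sparc* reversed within NXT0143 (0.57, and 0.089 as CPM), as did *Col5a2* between NXT0072 and NXT0142 (0.21, and 0.17 as CPM), where the cause was not tested. For the tissue difference, the count of genes, the correlations, the genes per cell and the chondrogenic difference, the remaining alternatives stayed within these limits, including CPM, thinning and the *Hoxd13* cells alone. Of 120 alternatives for single genes 46 moved and 4 reversed. Depth limits what is said of cells below 5 reads, and 1 pool per tissue, with 17 autopod cells in the shared run, limits the contrast.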

Other observations

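Autopod cells below 5 *Hoxd13* reads were described after the *Sparc* values had been seen. In the 11 such cells the mean log2(normalized value + 1) was 6.94 for *Sparc*, 1.83 for *Col6a1* and 2.58 for *Col3a1*, against 2.76, 0.33 and 1.51 in the 65 autopod cells with *Hoxd13*. The *Sparc* order was the same in NXT0072 (4.11 in 5 cells and 2.40 in 54) and NXT0143 (9.29 in 6 and 4.53 in 11). Of the 4 autopod cells with *Col6a1*, 1 had *Hoxd13*, and neither the autopod cell with *Postn* nor that with *Dcn* had it, whereas *Hoxd13* was found in 43 of the 49 autopod cells with *Col1a1* (87.8%) and in 22 of the 27 without (81.5%).

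Some genes of matrix turnover and adhesion had higher means in the autopod in every comparison, although none by 2 overall. *Mmp2*, encoding a gelatinase, differed by 1.34 (0.89 within NXT0143), *Adamts5*, an aggrecanase, by 1.32 (1.33) and *Itga11*, the collagen-binding integrin chain, by 1.04 (1.93). *Itga11* was detected in 26.3% of autopod and 4.07% of zeugopod cells. *Vcan*, which encodes the proteoglycan versican, gave 0.68 overall and 2.64 within NXT0143, but −0.18 between the other runs. The genes of this paragraph were chosen after their values were seen.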
